A study of Mus musculus with 12 samples.

Results

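Receptor chains of the common gamma-chain cytokines and the feedback inhibitors that act on their signaling were followed in CD4+ T cells of B6 and SLE123 mice, with and without anti-CD45RB. They are 10 genes chosen by name, of the 35275 genes in the table: the receptor chains Il2rb, Il2rg, Il7r, Il4ra, Il21r and Il6ra, and the inhibitors Cish, Socs1, Socs2 and Socs3. All 10 were above the expression filter. RNA-Seq was done on purified CD4+ T cells, with 1 library per mouse and 3 mice in each of 4 groups. B6 is the C57BL/6 strain (C57BL/6J in the methods), and SLE123 is a congenic strain on that background, into which the NZM2410 loci for susceptibility to lupus, named Sle1, Sle2 and Sle3, were bred. Treated mice of either strain received 100 µg of anti-CD45RB (clone MB23G2), an antibody against an isoform of the surface phosphatase CD45, in 5 intraperitoneal injections that ended on day 7, and the mice of the other groups were left untreated. The methods give an age of 9 weeks, while the figure legend for the RNA-Seq names female mice over a wider range of ages. The methods describe a sort into CD25+ and CD25- cells, and the sample titles name no such fraction.

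Common gamma-chain cytokines signal through receptors that share the chain encoded by Il2rg. IL-2 and IL-15 bind it together with the chain encoded by Il2rb, IL-7 with that of Il7r, IL-4 with that of Il4ra and IL-21 with that of Il21r. The shared chain holds the kinase JAK3, the partner chains hold JAK1, and these kinases activate STAT transcription factors, mainly STAT5 for IL-2, IL-7 and IL-15, STAT6 for IL-4 and STAT3 for IL-21. Il6ra encodes the receptor of IL-6, which does not use the shared chain but pairs with gp130, the product of Il6st. STAT factors induce CIS, encoded by Cish, and the SOCS proteins, which bind receptors or kinases and limit further signaling. In CD4+ T cells, IL-7 keeps naive cells alive, IL-2 supports regulatory and effector cells, and IL-21 and IL-6 act in follicular help.

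Since STAT dimers can bind the palindrome TTCNNNGAA, it was searched in the promoter windows of RefSeq (GRCm38.p6), which run from 250 bases before to 50 bases after a start site. Only this spacing between TTC and GAA was searched, so a window without a match may hold STAT sites of another form. The pattern is the same on both strands, while the bases written as N need not be. A total of 8 of the 10 genes have a window there, and the exceptions are Il2rb and Socs2. Of all 32851 windows, 8.3% held the palindrome and 0.457% held it 2 or more times. The windows of Cish, Socs3 and Il7r held it, and those of Il2rg, Il4ra, Il21r, Il6ra and Socs1 did not. The matches are shown because 2 of them lie side by side at the start site of Cish, with the palindrome in capitals and 10 bases on each side. The stretches are written in the direction of transcription, and both Cish stretches overlap.
Cish, chr9:107296649-107296677, plus strand: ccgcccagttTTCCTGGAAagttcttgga
Cish, chr9:107296660-107296688, plus strand: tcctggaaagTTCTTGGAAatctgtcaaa
Socs3, chr11:117969502-117969530, minus strand: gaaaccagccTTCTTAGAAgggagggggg
Il7r, chr15:9530000-9530028, minus strand: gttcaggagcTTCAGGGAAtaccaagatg
The first base of the palindrome was base 1 and base 12 for Cish, base -154 for Socs3 and base -142 for Il7r, counted from the RefSeq start site. The GENCODE genes used for expression begin further upstream, at base 107296026 for Cish, 117970047 for Socs3 and 9530176 for Il7r. The matches thus lie inside the genes by that annotation. These letters describe the sequence and do not show that a factor binds there.

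Each library held between 13562933 and 23641603 fragments. The genes had at least 124 fragments in every library, the lowest count being that of Socs2. The 9 T cell markers summed to between 1960.9 and 2502.0 FPKM in the 12 libraries, with Cd4 and Cd3e high in all of them. Of the CD8 T cell markers, Cd8a was at most 1.92 FPKM, while Cd8b1 was at 12.1 to 17.4 FPKM in treated B6, 10.9 to 12.8 FPKM in untreated B6 and 3.88 to 7.33 FPKM in SLE123 and was called lower in SLE123 in both strain comparisons. FPKM relates the fragments of a gene to transcript length and to all fragments mapped in that library. Libraries differed in transcripts of other cells. Summed over 6 NK cell markers, the treated B6 mice had 133.6 to 170.1 FPKM and the untreated B6 mice 82.4 to 86.7 FPKM. Summed over 8 B cell markers, the ranges were 27.1 to 35.7 FPKM in treated B6, 6.46 to 7.85 FPKM in untreated B6, 38.0 to 58.1 FPKM in treated SLE123 and 64.5 to 239.5 FPKM in untreated SLE123. Untreated SLE123 replicate 3 held that highest B cell value. Over 6 plasma cell markers, the sums were 99.5 to 139.7 FPKM in untreated B6 and 129.2 to 454.6 FPKM in treated B6. They were 2614.4 to 6838.0 FPKM in untreated SLE123 and 1594.3 to 2861.4 FPKM in treated SLE123. All 6 were called higher in SLE123 in both strain comparisons, and their part in the differences below was not tested. Immunoglobulin genes held 5.06 to 12.2% of fragments in untreated SLE123 and 0.0895 to 0.133% in untreated B6. Liver transcripts such as Alb were present at 24.7 to 30.7 FPKM in all B6 libraries and at 28.2 FPKM in treated SLE123 replicate 1, and at or near 0 in the other 5 SLE123 libraries. In RNA from a cell preparation, a larger share of cells with a transcript and more transcript per cell cannot be told apart.

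Transcripts of all receptor chains were abundant, and the inhibitors ranged from abundant to low. Il7r had the highest group mean of the 10 genes in B6, with 229.5 ± 21.6 FPKM (SD, n = 3) in untreated mice, while Il2rb had the highest in SLE123, with 149.9 ± 12.7 FPKM (SD, n = 3) in untreated mice. Among the inhibitors, Socs3 was the most abundant in every group and Cish and Socs2 were the lowest. The coefficient of variation between the mice of a group had a median over the 10 genes of 4.3% in untreated B6, 7% in treated B6, 6.58% in treated SLE123 and 17.5% in untreated SLE123. The spread between mice was therefore widest in untreated SLE123, also over all genes tested, for which the median SD on the log2 scale was 0.17 there and 0.0772 to 0.0809 in the other groups.

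**Figure D1:**
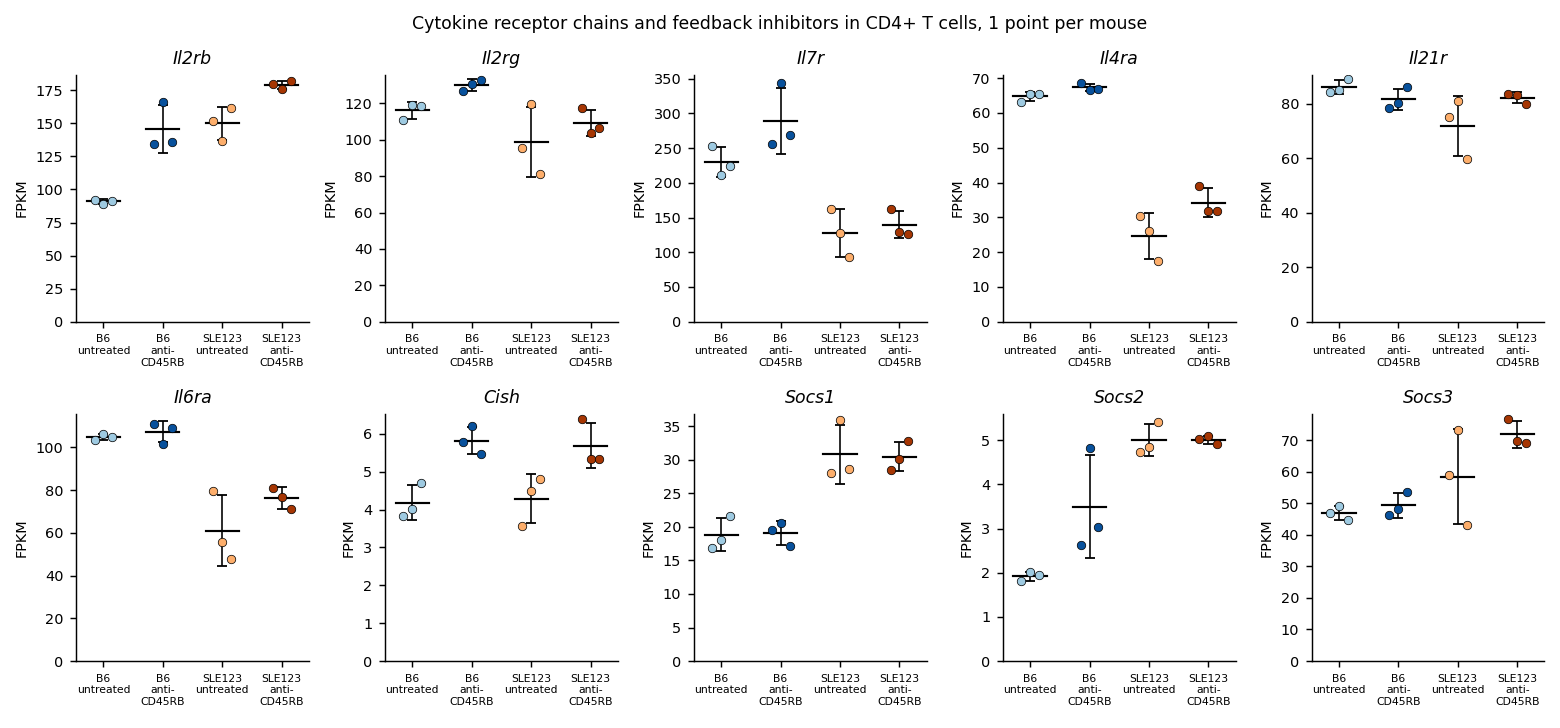
FPKM of the 10 genes (vertical axes, starting at 0) in the 4 groups, with 1 point per mouse, a line at the mean and bars of 1 SD (n = 3). Il2rb and Socs2 were lowest in untreated B6 mice, and Il7r, Il4ra and Il6ra were lower in every SLE123 mouse than in any B6 mouse.

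Anti-CD45RB was first compared with no treatment in B6 mice, which asks what the antibody changes in CD4+ T cells of the strain that does not carry the lupus regions. Il2rb, Cish and Il2rg rose, and none of the 10 genes fell. Of 13115 genes tested with limma, 14.9% were called in either direction, 8.74% higher and 6.12% lower, against 3 of these 10 genes higher and 0 lower. With quantile normalization the calls over all genes went from 1146 higher and 802 lower to 996 higher and 1051 lower. The median log2 difference was 0.118 over the 10 genes and -0.002 over all genes tested. Markers of other cells were also called higher in treated B6 mice, with 6 of 7 tested B cell markers and 5 of 6 tested myeloid markers, and their part in the differences below was not tested.

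Il2rb, the signaling chain of the IL-2 and IL-15 receptors, was at 134.1, 166.4 and 136.1 FPKM in treated B6 replicates 1, 3 and 5, and at 92.4, 89.0 and 91.3 FPKM in untreated replicates 3, 4 and 5. Every treated mouse was above every untreated mouse, and 38% of all genes tested had treated and untreated B6 groups without overlap. The log2 difference, on the scale of log2(FPKM + 1), was 0.67 (SE 0.0804, 95% confidence interval 0.48 to 0.86, limma adjusted p = 0.00429), a rise of 1.59-fold. Its call held with each mouse left out in turn, with log2 differences of 0.57 to 0.72. NK cells carry high levels of this chain, and the NK cell markers were also higher in all 3 treated B6 mice. Of 6 such markers, 4 were called higher, among them Ncr1 at 5.73 ± 0.587 FPKM (SD, n = 3) against 0.349 ± 0.13 FPKM and Nkg7 at 68.7 ± 6.96 FPKM against 33.3 ± 2.48 FPKM. Treated B6 replicate 3 had both the highest Il2rb and the highest summed NK cell markers of the B6 mice. Regulatory T cells carry this chain as well, and 0 of their 6 markers were called in treated B6. Among them Foxp3 was at 8.02 ± 0.465 FPKM in treated and 5.22 ± 1.36 FPKM in untreated B6, without overlap (limma adjusted p = 0.0536). The part of NK cells or regulatory T cells in the difference was not tested.

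**Figure D2:**
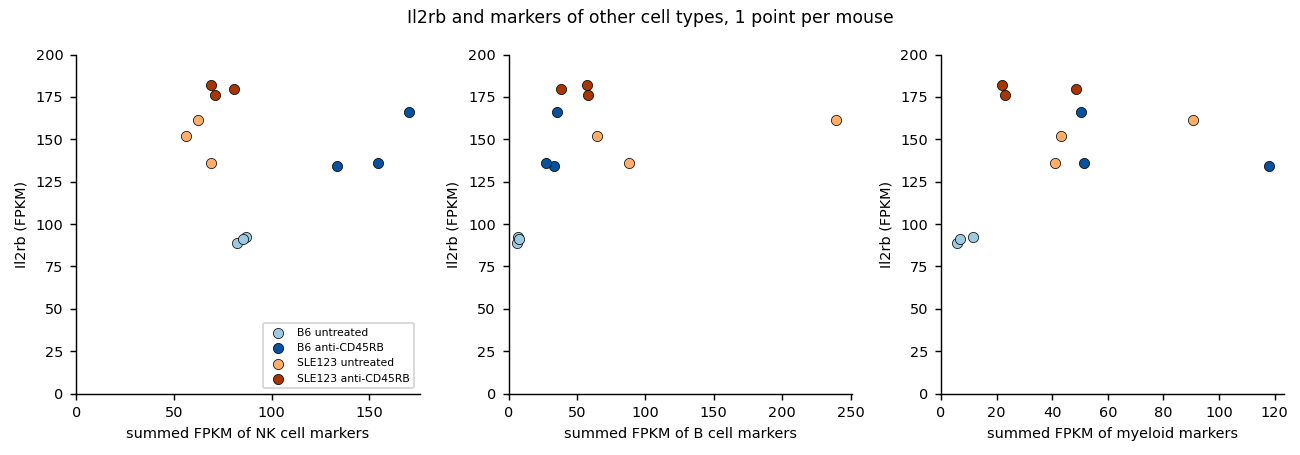
Il2rb (FPKM, vertical axis) against the summed FPKM of NK cell, B cell and myeloid markers (horizontal axes), with 1 point per mouse. Treated B6 mice were above untreated B6 mice on all axes, while treated SLE123 mice had the highest Il2rb at summed NK cell markers of 68.9 to 80.6 FPKM, below every untreated B6 mouse.

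Il2rg, the shared chain, rose less. Its values were 126.7, 130.9 and 132.7 FPKM in treated and 110.9, 118.9 and 118.7 FPKM in untreated B6 mice, again without overlap. The log2 difference was 0.16 (SE 0.0376, limma adjusted p = 0.0325), and the call was lost in 5 of 6 fits with 1 mouse left out, with log2 differences of 0.13 to 0.18 over the 6 fits. The exons of Il2rg overlap those of a predicted gene, Gm20489, and the strandedness of the libraries is not stated, so a share of these fragments could belong to that gene.

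Il7r, the IL-7 receptor chain, was at 255.4, 343.4 and 269.1 FPKM in treated B6 mice and at 253.1, 210.7 and 224.7 FPKM in untreated ones. The highest untreated mouse lay just below the lowest treated mouse. The log2 difference of 0.32 (95% confidence interval 0.04 to 0.61) did not pass the threshold (limma adjusted p = 0.111). The other receptor chains stayed close to their untreated levels. For Il4ra, Il21r and Il6ra the log2 differences were 0.06, -0.08 and 0.03, with 95% confidence intervals of -0.02 to 0.13, -0.18 to 0.02 and -0.06 to 0.12.

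Among the inhibitors, Cish rose. It was at 5.78, 6.2 and 5.48 FPKM in treated B6 mice and at 3.84, 4.01 and 4.7 FPKM in untreated ones, without overlap. The log2 difference was 0.40 (SE 0.0865, 95% confidence interval 0.19 to 0.60, limma adjusted p = 0.0274), a rise of 1.32-fold, and the call was lost in 5 of 6 fits with 1 mouse left out, where the log2 differences were 0.35 to 0.47. Cish is the gene with 2 STAT palindromes at its RefSeq start site, shown above, and whether they have a part in this rise was not tested. Its exons overlap those of the predicted genes Gm17040 and Gm17041, with the same uncertainty as for Il2rg.

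Socs2, which restrains growth hormone and STAT5 signaling, was at 2.64, 4.82 and 3.04 FPKM in treated B6 mice and at 1.81, 2.01 and 1.95 FPKM in untreated ones. Each treated mouse was above each untreated one, and treated replicate 3, the mouse with the highest Il2rb and Il7r, was well above the other treated mice. The log2 difference of 0.59 (95% confidence interval 0.19 to 1) missed the threshold (limma adjusted p = 0.0615). Socs1 and Socs3, which inhibit JAK kinases and the gp130 receptor, differed by 0.02 and 0.07 on the log2 scale, with 95% confidence intervals of -0.22 to 0.26 and -0.07 to 0.22.

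In SLE123 mice the same course of antibody gave no call among the 10 genes. With limma, 0 of the 10 passed at an adjusted p of 0.05, where 0.0381% of all genes tested were called. At an unadjusted p of 0.05, 3 of the 10 genes passed, with 10.4% of all genes tested, and these were Il2rb, Il4ra and Cish. The median log2 difference was 0.231 over the 10 genes and 0.038 over all genes tested. The untreated SLE123 libraries that enter here are those with the widest spread between mice.

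Il2rb was at 179.6, 176.0 and 182.0 FPKM in treated SLE123 replicates 1, 2 and 3 and at 152.1, 136.3 and 161.5 FPKM in the untreated replicates. The groups did not overlap, as for 19.7% of all genes tested. The log2 difference was 0.26 (95% confidence interval 0.03 to 0.49, limma adjusted p = 0.466). Of 6 regulatory T cell markers 0 were called. Foxp3 was at 22.3 ± 0.53 FPKM in treated and 13.9 ± 1.34 FPKM in untreated SLE123 (limma adjusted p = 0.0989), and the part of these cells was not tested. Cish was at 6.39, 5.34 and 5.35 FPKM in treated and 3.56, 4.5 and 4.82 FPKM in untreated SLE123 mice. Again the groups did not overlap, and the log2 difference was 0.34 (95% confidence interval 0.05 to 0.64, limma adjusted p = 0.466). Il4ra was at 39.0, 31.9 and 31.9 FPKM in treated and 30.4, 26.2 and 17.4 FPKM in untreated SLE123 mice, and its log2 difference was 0.49 (95% confidence interval 0.02 to 0.95, limma adjusted p = 0.469).

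The lowest Il4ra value was that of untreated replicate 3, the library with the highest B cell markers. That library also had the lowest Il7r, Il6ra, Il21r, Il2rg and Socs3 of all 12 mice. Without it and treated replicate 1, a choice made after seeing the data, 0 of the 10 genes were called as well. Socs2 and Socs1 stood at the same level in both SLE123 groups, with log2 differences of 0.00 (95% confidence interval -0.21 to 0.21) and -0.01 (95% confidence interval -0.28 to 0.26). Socs3, Il6ra, Il21r, Il2rg and Il7r had log2 differences of 0.32, 0.35, 0.2, 0.16 and 0.15, with overlap between the groups in each case.

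Whether the response to the antibody differed between the strains was tested by the interaction over all 12 mice, in which a negative value means a smaller rise or a larger fall in SLE123 than in B6. None of the 10 genes was called by limma, where 3.64% of all genes tested were called, 166 higher and 312 lower (92 and 356 after centring on the median log-ratio). At an unadjusted p of 0.05, 2 of the 10 genes passed, with 25.1% of all genes tested. These were Il2rb, with a difference of -0.41 (95% confidence interval -0.67 to -0.14, limma adjusted p = 0.0844), and Socs2, with a difference of -0.59 (95% confidence interval -1.03 to -0.15, limma adjusted p = 0.112). For Cish the difference was -0.05 (95% confidence interval -0.39 to 0.28, limma adjusted p = 0.852). Each had a difference that did not pass over all genes. Without untreated SLE123 replicate 2, the interaction of Il2rb passed (-0.47, limma adjusted p = 0.0471), where 497 of 13115 genes were called. Without untreated SLE123 replicate 1, those of Il4ra (0.59, limma adjusted p = 0.0451) and Il6ra (0.52, limma adjusted p = 0.00769) passed. In that fit 2917 of 13115 genes were called, so these passes do not set the 2 genes apart.

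**Figure D3:**
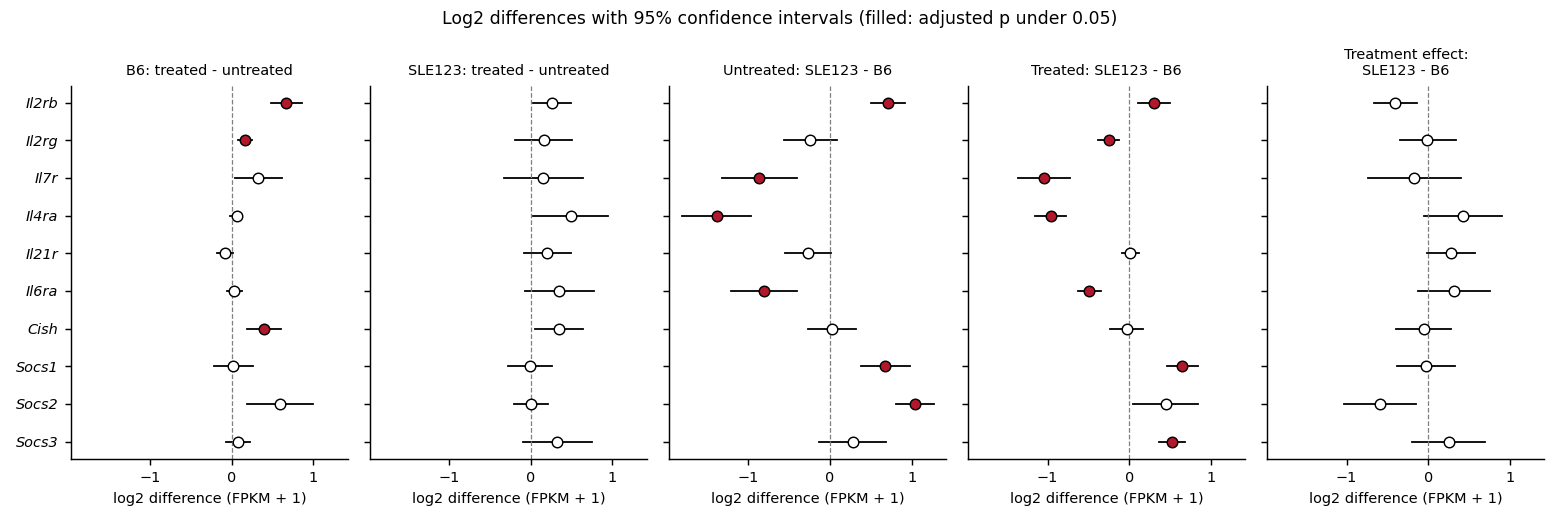
Log2 differences (horizontal axes, on log2(FPKM + 1)) of the 10 genes in the 5 comparisons, with bars for the 95% confidence intervals of limma and filled points where the adjusted p was under 0.05. Il2rb, Il2rg and Cish were called higher in treated B6, none of the 10 genes was called in SLE123 or in the interaction, and both strain comparisons had calls in either direction.

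The untreated mice of the strains were then compared, as SLE123 against B6. Among the receptor chains, Il4ra, Il7r and Il6ra were lower and Il2rb was higher in SLE123, and of the inhibitors Socs2 and Socs1 were higher. In all 6 of the 10 genes were called, where 42.9% of all genes tested were called, with 22.8% higher and 20.1% lower. The share of the 10 genes is thus not far from the background. When FPKM were rescaled to TPM, the median of all genes moved from -0.03 to -0.34 and the calls over all genes from 2990 higher and 2631 lower to 1912 higher and 5989 lower. With TPM but without immunoglobulin genes they were 3370 and 1640. The groups did not overlap for 58.6% of all genes tested. The untreated B6 and untreated SLE123 mice are the controls of the comparisons above, which share them. Directions below held under each scaling for the genes called.

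Il4ra, the chain for IL-4 and IL-13, was at 63.3, 65.5 and 65.6 FPKM in untreated B6 and at 30.4, 26.2 and 17.4 FPKM in untreated SLE123 mice. The groups were far apart, and the log2 difference was -1.39 (SE 0.182, 95% confidence interval -1.82 to -0.97, limma adjusted p = 0.00107), the largest in size among the 10 genes in any of the 5 comparisons. The neighboring gene Il21r begins 23954 bases beyond the end of Il4ra on chromosome 7. Il21r was at 84.3, 84.9 and 89.2 FPKM in B6 and at 75.2, 80.8 and 59.6 FPKM in SLE123, also lower without overlap, and its log2 difference of -0.27 did not pass (95% confidence interval -0.55 to 0.01, limma adjusted p = 0.104). Il4ra shares exonic bases with the predicted gene Gm44876, with the same uncertainty as for Il2rg.

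Il7r was at 253.1, 210.7 and 224.7 FPKM in untreated B6 and 162.9, 127.6 and 93.5 FPKM in untreated SLE123 mice, without overlap. Its log2 difference was -0.87 (SE 0.195, 95% confidence interval -1.33 to -0.41, limma adjusted p = 0.0105). Il6ra was at 103.5, 106.2 and 105.1 FPKM in B6 and 79.6, 55.5 and 47.9 FPKM in SLE123, a log2 difference of -0.81 (SE 0.172, limma adjusted p = 0.00873). Thus transcripts of 1 chain each of the receptors for IL-4, IL-7 and IL-6 were lower in SLE123. These calls held in each of 10 other settings and with each mouse left out in turn. Il6st, the partner of Il6ra, was not called between these groups (-0.23, limma adjusted p = 0.297). Il6ra shares exonic bases with Gm42809, again with unknown strand.

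These receptors are high in naive T cells, and the naive markers moved with them. All 6 naive T cell markers were called lower in untreated SLE123, and their sum was 648.5 to 1157.5 FPKM there against 1846.8 to 1905.5 FPKM in untreated B6. All 7 markers of activated and follicular helper T cells were called higher, with a sum of 425.7 to 483.2 FPKM against 91.2 to 111.8 FPKM. The part of the mixture of naive and activated cells in the receptor differences was not tested.

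Il2rb moved the other way. With 152.1, 136.3 and 161.5 FPKM in untreated SLE123 against 92.4, 89.0 and 91.3 FPKM in untreated B6, it was higher by 0.71 on the log2 scale (SE 0.0886, 95% confidence interval 0.5 to 0.92, limma adjusted p = 0.000862). The NK cell markers summed to less in untreated SLE123, 56.3 to 69.0 FPKM, than in untreated B6, with 2 of the 6 called lower and Eomes called higher. Regulatory T cells also carry this chain, and 5 of their 6 markers were called higher in untreated SLE123, with a sum of 200.0 to 214.1 FPKM against 48.0 to 61.7 FPKM. The part of either cell type in the difference was not tested. On the TPM scale the difference of Il2rb was 0.33 and did not pass (limma adjusted p = 0.0687). Il2rg was at 95.7, 119.6 and 81.3 FPKM against 110.9, 118.9 and 118.7 FPKM, with overlap, and its difference of -0.25 did not pass (95% confidence interval -0.57 to 0.08, limma adjusted p = 0.187).

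Socs2 was at 4.74, 4.86 and 5.42 FPKM in untreated SLE123 and at 1.81, 2.01 and 1.95 FPKM in untreated B6. All SLE123 mice were at more than any B6 mouse, a log2 difference of 1.04 (SE 0.0986, 95% confidence interval 0.81 to 1.27, limma adjusted p = 0.000247) or 2.05-fold. Socs1, the inhibitor of JAK kinases, was at 28.0, 35.9 and 28.6 FPKM against 16.9, 18.0 and 21.6 FPKM, a log2 difference of 0.68 (SE 0.129, limma adjusted p = 0.00534). On the TPM scale that of Socs1 was 0.31 and did not pass (limma adjusted p = 0.101). Socs3 and Cish overlapped between the strains, with differences of 0.28 (95% confidence interval -0.13 to 0.69) and 0.03 (95% confidence interval -0.27 to 0.32). Without untreated SLE123 replicate 3, that of Socs3 was 0.48 and passed (limma adjusted p = 0.0171).

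Treated mice of the strains were compared in the same way. These mice are also the treated arms of the comparisons above, so the results are not independent of them. Of the 10 genes, 3 were called higher and 4 lower in SLE123, where 29.6% and 22.5% of all genes tested were called higher and lower, 52.1% in all, and for 61.8% the groups did not overlap. With quantile normalization the calls over all genes changed from 3881 higher and 2955 lower to 2643 higher and 4821 lower. With TPM but without immunoglobulin genes, they were 5092 higher and 2011 lower.

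Il7r was lower in treated SLE123 mice by a log2 difference of -1.04 (SE 0.136, limma adjusted p = 0.000886), with 162.4, 129.9 and 127.0 FPKM against 255.4, 343.4 and 269.1 FPKM. Il4ra was lower by -0.96 (SE 0.0789, limma adjusted p = 0.000143), with 39.0, 31.9 and 31.9 FPKM against 68.5, 66.7 and 66.9 FPKM. Il6ra was lower by -0.49 (SE 0.0592, limma adjusted p = 0.000652), with 81.1, 76.9 and 71.1 FPKM against 111.2, 101.8 and 109.2 FPKM. For all 3 transcripts the groups stood apart, as they did without treatment. Il2rg was lower as well, by -0.25 (SE 0.0529, limma adjusted p = 0.00676). All 6 naive T cell markers were again called lower, with a sum of 1072.7 to 1295.4 FPKM against 1652.1 to 1823.9 FPKM, and their part in these differences was not tested.

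Socs1 was higher by 0.65 (SE 0.0799, limma adjusted p = 0.000681), with 28.5, 30.2 and 32.8 FPKM in treated SLE123 against 19.5, 20.6 and 17.1 FPKM in treated B6. Socs3, which binds gp130 and limits IL-6 signaling, was higher by 0.53 (SE 0.0672, limma adjusted p = 0.000761), with 76.7, 69.8 and 69.1 FPKM against 46.3, 48.1 and 53.7 FPKM. Both sets of values did not overlap. Il2rb was higher by 0.31 (SE 0.0828, limma adjusted p = 0.0196), where 5 of 6 NK cell markers were called lower and the other, Eomes, higher. Of the 6 regulatory T cell markers, 5 were called higher, with a sum of 205.9 to 241.8 FPKM against 56.8 to 67.5 FPKM, and the part of these cells was not tested. The Il2rb call was lost without treated B6 replicate 1 (0.25, limma adjusted p = 0.0642), treated B6 replicate 5 (0.26, limma adjusted p = 0.068) or treated SLE123 replicate 3 (0.29, limma adjusted p = 0.0601), with TPM (0.13, limma adjusted p = 0.273) and with quantile normalization (0.1, limma adjusted p = 0.407). Socs2 was at 5.03, 5.1 and 4.91 FPKM in treated SLE123 and 2.64, 4.82 and 3.04 FPKM in treated B6, a difference of 0.45 that did not pass (limma adjusted p = 0.0606). Without treated B6 replicate 3 it was 0.65 and passed (limma adjusted p = 0.00164). Cish and Il21r differed by -0.03 and 0.01, with 95% confidence intervals of -0.23 to 0.17 and -0.09 to 0.12.

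The order of the group means was set mostly by strain, with exceptions. Il7r, Il4ra and Il6ra had both B6 groups above both SLE123 groups, and the lower B6 group did not overlap the higher SLE123 group. For Socs1 both SLE123 groups were above both B6 groups without overlap, while within a strain the groups overlapped. For Il2rb the order was treated SLE123, untreated SLE123, treated B6 and untreated B6, and the middle groups overlapped at 149.9 ± 12.7 and 145.5 ± 18.1 FPKM (SD, n = 3). For Cish the group means were ordered by treatment instead of strain. Its treated groups were at 5.82 ± 0.363 FPKM in B6 and 5.69 ± 0.599 FPKM in SLE123 (SD, n = 3), and its untreated groups at 4.18 ± 0.452 and 4.29 ± 0.656 FPKM. Every treated mouse exceeded every untreated mouse of either strain. Cish was not called in SLE123 (limma adjusted p = 0.466), and its call in B6 held in 1 of 6 fits with 1 mouse left out. How many of all genes tested have groups ordered in these ways was not counted.

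Ratios of receptor transcripts within a library do not depend on how libraries are scaled, and were added after seeing the data. Differences between the 4 pairs of groups were tested by two-sided exact permutation tests, for which the smallest possible p is 0.1 with 3 mice against 3. The ratio of Il2rb to Il2rg was 0.833, 0.749 and 0.77 in untreated B6, 1.06, 1.27 and 1.03 in treated B6, 1.59, 1.14 and 1.99 in untreated SLE123 and 1.53, 1.7 and 1.71 in treated SLE123. Every untreated B6 mouse thus had less Il2rb than Il2rg per length of transcript, and every other mouse had more. Treated and untreated B6 did not overlap (exact permutation p = 0.1), and treated and untreated SLE123 did (exact permutation p = 0.8).

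The ratio of Il2rb to Il7r was between 0.365 and 0.423 in untreated B6, 0.485 and 0.525 in treated B6, 0.933 and 1.73 in untreated SLE123 and 1.11 and 1.43 in treated SLE123. Strains stood apart with and without treatment (exact permutation p = 0.1 in each case). Il4ra relative to Il2rg was at 0.551 to 0.57 in untreated B6 and 0.215 to 0.318 in untreated SLE123, also apart (exact permutation p = 0.1). The lower Il4ra of SLE123 and its higher Il2rb relative to Il7r were thus present within single libraries.

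**Figure D4:**
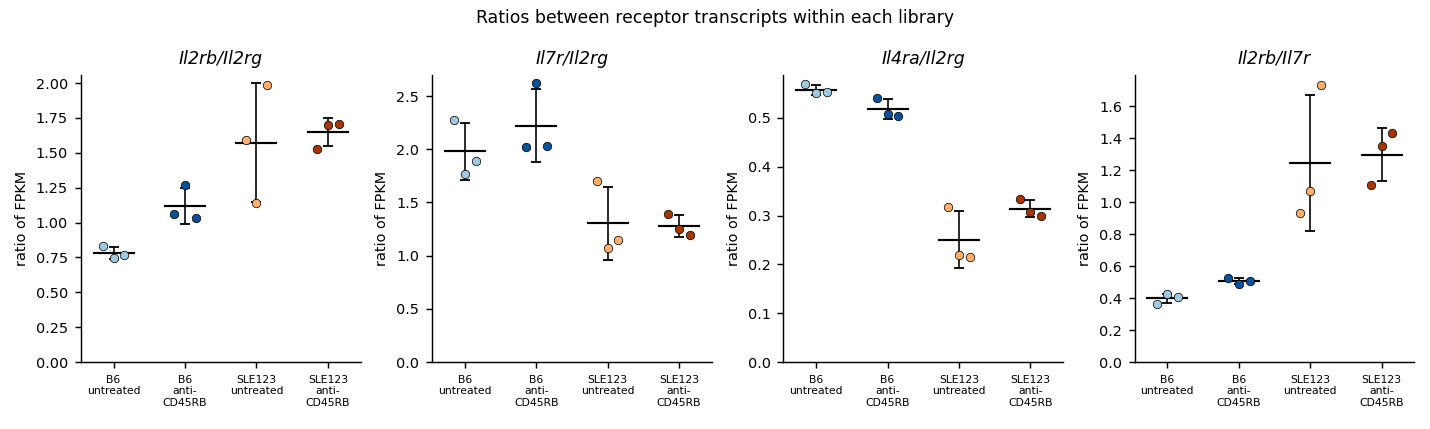
Ratios of FPKM between receptor transcripts (vertical axes, starting at 0) within each library, with 1 point per mouse, a line at the mean and bars of 1 SD (n = 3). Il2rb relative to Il7r was 0.365 to 0.525 in B6 mice and 0.933 to 1.73 in SLE123 mice.

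The rest of the pathway was described by lists of 60 other genes, of which 55 were tested. In treated against untreated B6 mice, 6 of the 55 were called higher and 4 lower, where 8.74% and 6.12% of all genes tested were, and their median log2 difference was -0.008. In SLE123 mice, 0 of the 55 were called by limma, where 0.0381% of all genes tested were. At an unadjusted p of 0.05, 13 of the 55 passed, beside 10.4% of all genes tested. Between untreated strains 16 were called higher and 13 lower in SLE123, beside 22.8% and 20.1% of all genes tested. Between treated strains 22 and 18 were, beside 29.6% and 22.5%, and in the interaction 1 and 4, beside 3.64% in either direction. Under the 4 other scalings, the sign of a called gene changed for Bcl2l1 between untreated strains and for Tyk2 between treated strains, both on the TPM scale. Between untreated strains, 8 of 29 calls were lost on the TPM scale, among them those of Bcl2l1, Pim1, Pias3, Gfi1, Pim2, Crlf2 and Socs5, which were called higher. With TPM without immunoglobulin genes those of Stat5b, Runx1 and Pias2, called lower, were lost, and with quantile normalization those of Gfi1 and Socs5.

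Ligand transcripts differed by strain more than by treatment. Of 9 ligands, only Il2, Il4, Il15 and Il21 passed the filter. Il21, a cytokine of follicular helper cells, was at 34.7, 23.0 and 33.6 FPKM in untreated SLE123 against 0.928, 2.38 and 2.16 FPKM in untreated B6, a log2 difference of 3.5 (limma adjusted p = 6.31e-05). Its receptor Il21r, given above, was not called between these groups. Il4 was higher in untreated SLE123 by 1.09 (limma adjusted p = 0.000205), where Il4ra was lower. Il15 was higher by 1.2 (limma adjusted p = 0.000258) at 1.43 to 1.73 FPKM against 0.0326 to 0.162 FPKM, and Il2 was at most 1.12 FPKM in any mouse and was called in none of the 5 comparisons. Between the same untreated groups, 5 of 6 tested markers of basophils and eosinophils were called higher in SLE123 and 0 lower. Summed over 7 such markers, untreated SLE123 had 78.2 to 99.8 FPKM and untreated B6 5.01 to 5.19 FPKM. The part of these cells in the ligand differences was not tested.

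Il2ra, the chain that gives the IL-2 receptor its high affinity and that marks CD25+ cells, was low. Its values were 5.61, 6.24 and 4.08 FPKM in treated B6, 4.55, 3.87 and 4.66 FPKM in untreated B6, 9.44, 6.18 and 6.67 FPKM in treated SLE123 and 5.13, 5.34 and 5.95 FPKM in untreated SLE123. It was not called in any comparison, and the difference in B6 was 0.22 (95% confidence interval -0.11 to 0.56). Of 10 other receptor chains, Il10ra, a chain of the IL-10 receptor, was called higher in treated B6, at 20.7 ± 0.846 FPKM against 11.7 ± 0.335 FPKM (SD, n = 3), a log2 difference of 0.77 (limma adjusted p = 0.000574). Il6st, the gp130 partner of Il6ra, fell in B6 with a log2 difference of -0.42 (limma adjusted p = 0.0153), and Il27ra with -0.14 (limma adjusted p = 0.0422), a call that was lost after centring on the median log-ratio. Il15ra, which presents IL-15, was higher in untreated SLE123 by 0.84 (limma adjusted p = 0.00118) and Il13ra1, the partner of Il4ra for IL-13, by 2.74 (limma adjusted p = 7.14e-05).

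Receptor-bound kinases moved in opposite directions between the strains. Jak1 was at 152.4 ± 32.4 FPKM in untreated SLE123 and 243.4 ± 3.57 FPKM in untreated B6 (SD, n = 3), a log2 difference of -0.69 (limma adjusted p = 0.00843). Jak3, the kinase on the shared chain, was at 134.2 ± 10.8 FPKM against 64.8 ± 5.22 FPKM, a log2 difference of 1.04 (limma adjusted p = 0.000224). In treated B6, Jak3 was lower by a log2 difference of -0.3 (limma adjusted p = 0.0213), while Jak1 differed by -0.06 and was not called (95% confidence interval -0.13 to 0.02). Of the STAT genes, Stat6 and Stat5b were lower in untreated SLE123 by -0.39 (limma adjusted p = 0.0131) and -0.28 (limma adjusted p = 0.0489), and no STAT gene was called after treatment in either strain.

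Among genes that STAT5 induces or that keep T cells alive, 4 of 11 were called higher and 1 lower in treated B6, where 8.74% of all genes tested were called higher and 6.12% lower. Pim1, a survival kinase, was at 103.7 ± 3.5 FPKM against 56.4 ± 0.264 FPKM (SD, n = 3), a log2 difference of 0.87 (limma adjusted p = 0.000274). Bcl2l1, which encodes BCL-XL, rose by 0.39 (limma adjusted p = 0.00575), and the cyclins Ccnd3 and Ccnd2 by 0.36 (limma adjusted p = 0.00143) and 0.25 (limma adjusted p = 0.0132). Lta, the exception, fell with a log2 difference of -0.32 (limma adjusted p = 0.00819). Myc and Bcl2, other genes of this list, were not called in B6. Of these, Pim1 and Bcl2l1 were also called higher in untreated SLE123 against untreated B6, by 0.44 (limma adjusted p = 0.0156) and 0.33 (limma adjusted p = 0.0123), and Bcl2 and Myc lower, by -0.47 (limma adjusted p = 0.00347) and -0.54 (limma adjusted p = 0.00396).

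Transcription factors that control Il7r were followed beside it. Foxo1, which activates Il7r, was lower in untreated SLE123 by a log2 difference of -0.97 (limma adjusted p = 0.00222), and Ets1 by -0.58 (limma adjusted p = 0.0154). Gfi1, a repressor of Il7r, was higher by 0.46 (limma adjusted p = 0.0436), with overlap between the groups, and Foxp1, which competes with Foxo1, was lower by -0.72 (limma adjusted p = 0.00272). In B6, Klf2, a factor of naive T cells, rose from 212.0 ± 5.48 to 353.4 ± 14.2 FPKM (SD, n = 3) with treatment, a log2 difference of 0.73 (limma adjusted p = 0.000363), and it was the only gene of the 7 in this list that was called there. Of the other inhibitors of signaling, none of 12 was called by limma in treated B6, with 2 at an unadjusted p of 0.05, while Ptpn11, which encodes the phosphatase SHP2, was higher in untreated SLE123 by 1.5 (limma adjusted p = 5.7e-05), Pias3 by 0.44 (limma adjusted p = 0.00728) and Socs5 by 0.37 (limma adjusted p = 0.0166).

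Other genes of the lists were called between strains and not after treatment, while Socs4, Socs6, Socs7, Pias1, Ptpn6, Sh2b3 and Gabpa were called in none of the 5 comparisons. Crlf2, a chain of the TSLP receptor, was higher in untreated SLE123 by 0.48 (limma adjusted p = 0.0273) and the survival kinase Pim2 by 0.41 (limma adjusted p = 0.0166). Ifnar1 and Ifngr1, interferon receptor chains, were lower by -0.58 (limma adjusted p = 0.00637) and -0.34 (limma adjusted p = 0.0189), Pias2 by -0.38 (limma adjusted p = 0.0128) and Runx1 by -0.3 (limma adjusted p = 0.0368). In treated mice, Stat3, Jak2, Stat2, Stat5a, Stat4 and Tyk2 were called higher in SLE123 by 0.43, 0.35, 0.27, 0.23, 0.19 and 0.13, as was Gadd45g by 0.54 with overlap between the groups. Il9r, Mcl1, Osm, Pias4 and Ptpn2 were called lower there, with log2 differences of -0.73, -0.39, -0.36, -0.19 and -0.11. On the TPM scale 9 of 40 calls between treated strains were lost, those of Stat5a, Stat2, Stat4, Jak2, Tyk2, Gadd45g, Bcl2l1, Il6st and Pias3. With quantile normalization 7 were lost, those of Stat5a, Stat4, Tyk2, Gadd45g, Bcl2l1, Pias3 and Il15. With TPM without immunoglobulin genes 5 were lost, those of Pias4, Ptpn2, Osm, Il27ra and Stat5b, and after centring on the median log-ratio 2, those of Bcl2l1 and Tyk2.

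**Figure D5:**
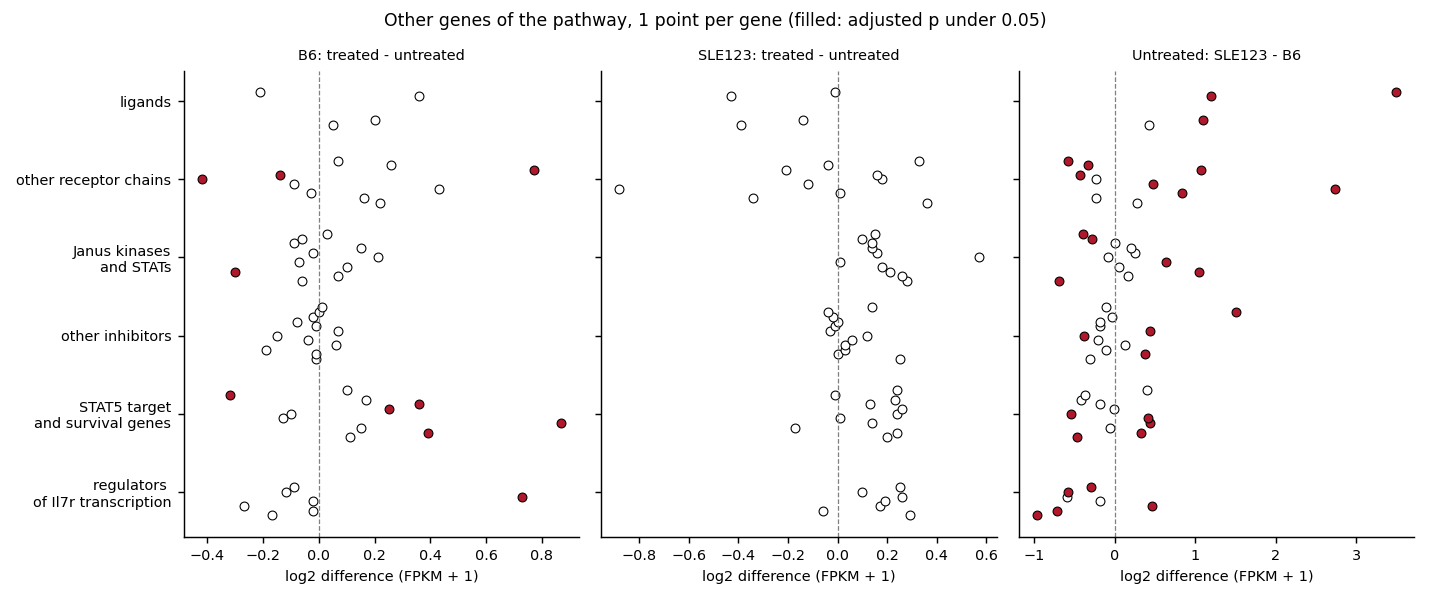
Log2 differences (horizontal axes, on log2(FPKM + 1), with a range of its own in each panel) of the 55 tested genes of the pathway lists, with 1 point per gene and filled points where the limma adjusted p was under 0.05. Calls after treatment were in B6 (6 higher, 4 lower), and Il21 was the farthest to the right between untreated strains, at 3.5.

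Over the 12 mice, the receptor chains that were lower in SLE123 varied together. Pearson's r on log2(FPKM + 1) was 0.97 between Il4ra and Il6ra, 0.94 between Il7r and Il4ra and 0.91 between Il7r and Il6ra, and 0.93 between Il2rb and Socs2. These values are descriptions over mice of 4 groups that share the differences above. After the mean of each group was taken off, r was 0.86, 0.81, 0.69 and 0.83, respectively, over the same 12 mice. For Il2rb and Socs2, treated B6 replicate 3 weighs much in that value, at 166.4 and 4.82 FPKM. Treated B6 replicates 1 and 5 were at 134.1 and 136.1 FPKM for Il2rb and 2.64 and 3.04 FPKM for Socs2. The r without replicate 3 was not computed. Il2rg, Il21r and Socs3, which had r of 0.77 and 0.02 between Il2rg and the others over the 12 mice, had r of 0.87 and 0.93 once the group means were taken off, and the untreated SLE123 mice, with the widest spread, weigh most in them.

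The tested genes most like each of the 10, by Pearson's r over the 12 mice, were the following. Cytip (r = 0.997), Slc44a2 (r = 0.997) and Srpk1 (r = 0.994) were most like Il4ra, Ripor2 (r = 0.993), Fam169b (r = 0.991) and Tgfbr2 (r = 0.991) most like Il6ra, and Lsm11 (r = 0.99), Tle4 (r = 0.985) and Rcsd1 (r = 0.983) most like Il7r. For Il2rb they were Tdrd7 (r = 0.97), Fam219a (r = 0.969) and Nrgn (r = 0.966), for Il2rg Tpm3 (r = 0.972), Cdipt (r = 0.967) and Itgb7 (r = 0.962), and for Il21r Lck (r = 0.981), Shisa5 (r = 0.923) and Sap30bp (r = 0.915). Among the inhibitors, Cish was most like Xcl1 (r = 0.923), Stx2 (r = 0.914) and Plod1 (r = 0.88), Socs1 most like Bmp7 (r = 0.979), Kifap3 (r = 0.978) and Galm (r = 0.976), Socs2 most like Serpina3f (r = 0.981), Map2k3 (r = 0.973) and Serpina3g (r = 0.971), and Socs3 most like Tmem173 (r = 0.93), Rbms2 (r = 0.924) and Ctsa (r = 0.916). The inhibitors Cish and Socs3 had the weakest likeness to any other gene.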

How the data were processed

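RNA-Seq was carried out on CD4+ T cells purified from 12 mice, 1 library per mouse, and the titles gave the groups. The authors deposited FPKM values per Ensembl gene, in which fragments are scaled to transcript length and to the mapped fragments of the library. Per the submitters' processing notes, CASAVA 1.8, STAR and mm10 were used, and the counting program is not given in the sources used here. GENCODE M21 (GRCm38) gave a symbol to 34490 of 35275 genes. Values were whole multiples of 1 fragment (tolerance 0.01) for 100% of the 23230 genes above 0, which gave the totals of 13562933 to 23641603 fragments. This depth bounds counting error only.

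FPKM were transformed as log2(FPKM + 1), which understates the change of low genes. Genes averaging 0.5 FPKM or more across all 12 mice, 13115 in number, entered limma 3.58.1 in R 4.3.3 (lmFit, then eBayes with a trend), on the 6 mice of each pair of groups or on all 12 for the interaction. P-values were adjusted over all genes tested (Benjamini-Hochberg, threshold 0.05). Each sets a difference between groups against the spread between the mice sampled, with variances moderated over all genes by eBayes. Ratios were tested with scipy 1.17.1.

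The members, gene lists and tests were chosen with earlier results of these data known. The named genes were the 10 members, genes of the pathway lists called in at least 1 of the 5 comparisons, Il2ra, Jak1 and Jak3, and the 3 genes of highest Pearson's r with each member. A result that this rule covers is not reported here. Alternatives were other pseudocounts, filters, scalings and fits, voom on recovered fragments, and each mouse left out in turn.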

Additional observations from a re-analysis of the deposited data

Results flagged for a closer look

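Of the 10 genes, none had a treatment effect that differed between the strains by the interaction test. Among the 55 other genes of the pathway that were tested, 5 did, where 3.64% of all genes tested were called. They are given here on the log2 scale, with a negative sign where the change in SLE123 was below that in B6. Il10ra had a difference of -0.98 (SE 0.0833, limma adjusted p = 0.000325), and its values were 20.4, 21.7 and 20.1 FPKM in treated and 11.6, 12.1 and 11.5 FPKM in untreated B6 mice against 21.8, 23.1 and 21.6 FPKM in treated and 27.6, 25.3 and 24.5 FPKM in untreated SLE123 mice. Pim1 had a difference of -0.72 (SE 0.122, limma adjusted p = 0.00972). Il15, at under 2 FPKM in all mice, had a difference of -0.8 (SE 0.143, limma adjusted p = 0.0132), and Il13ra1 of -1.32 (SE 0.291, limma adjusted p = 0.034). Jak3 had a difference of 0.51 (SE 0.117, limma adjusted p = 0.041). The call of Jak3 was lost after centring on the median log-ratio, and those of Jak3 and Il13ra1 with TPM without immunoglobulin genes. Il27ra and Mcl1 differed between treated and untreated mice in opposite directions in B6 and SLE123, without overlap in either strain. Of all genes tested, 38.0% had no such overlap in B6 and 19.7% in SLE123. How many did so in opposite directions was not counted. Neither gene passed in SLE123 (limma adjusted p = 0.566 for Il27ra and 0.496 for Mcl1). The interactions of Il27ra, 0.3 (SE 0.12, limma adjusted p = 0.155), and of Mcl1, -0.33 (SE 0.0917, limma adjusted p = 0.0698), did not pass. The markers of B cells, NK cells and myeloid cells had interactions called lower in 4 of 7, 3 of 6 and 5 of 6 tested markers. For basophils and eosinophils it was 5 of 6, for erythroid cells 2 of 3 and for plasma cells 0 of 6. Of all genes tested, 3.64% were called in either direction. The part of these cells in the differences of this paragraph was not tested.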

How the results depend on the processing

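Of the counts of the 10 genes called, those of both strain comparisons and of SLE123 treatment stayed within 1.5 times of the reported counts in all settings run. In treated against untreated B6 the count of 3 became 1 without a filter, 5 with voom on recovered fragments and 1 to 3 with 1 mouse left out, Il2rb being called in each of these. With the replicate number as a block it was 0, and no gene of the whole table was called there, in a fit with 1 residual degree of freedom. The numbers mark no stated litter or batch, and same-numbered treated and untreated mice had correlations of their deviations from the group means of -0.14 and -0.0936 in B6 and 0.137, -0.161 and 0.266 in SLE123, where 1 of 3 treated mice correlated best with its own number, so they were not taken as pairs. The block also took 2 of 7 calls between treated strains, Il2rb and Il2rg. In the interaction the count of 0 became 0 to 2 with 1 mouse left out. No paired fit was made between untreated strains, which share 1 number. Over all genes, the 1948 calls in B6 became 1134 without a filter, 815 with all 12 mice in one fit and 675 to 1393 with 1 mouse left out. The 5 in SLE123 became 25 with TPM, 3 with voom, 53 with all 12 mice in one fit and 1 to 7 with 1 mouse left out. The 5621 between untreated strains became 3672 without untreated B6 replicate 4 and 3710 without untreated B6 replicate 3. The 6836 between treated strains became 3414 with the block. The 478 of the interaction became 34 with the block, 276 with TPM without immunoglobulin genes, and 205 to 2917 with 1 mouse left out, the highest without untreated SLE123 replicate 1. No value of the 10 genes that was called changed its sign. Socs2 had at most 544 fragments and Cish 535, so their differences rest on fewer fragments than those of the receptors.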
